A study of Zea mays with 217 samples.

Results

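PPDK (Zm00001d038163) encodes pyruvate, orthophosphate dikinase, the enzyme of C4 photosynthesis that converts pyruvate back to phosphoenolpyruvate in the chloroplasts of maize leaf mesophyll cells. Its binding was read from a table that lists, for each transcription factor (TF) profiled by ChIP-seq in maize leaf protoplasts, the genes called as its targets. The rows chosen were those with PPDK as the target gene. They numbered 34 of the 272627 pairs of a TF and a gene, and PPDK was 1 of 20067 target genes. It was thus listed by 34 of the 104 TFs profiled, or 32.7%, while a TF listed a mean of 13.1% of the 20067 target genes. The median target gene was listed by 5 TFs.

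All libraries came from leaf protoplasts (leaf cells freed of their walls) of B73 seedlings aged 1 to 2 weeks, transformed with polyethylene glycol to carry the construct of a single TF. The fusion protein was recovered on streptavidin beads through a biotin tag, so each TF was made from a plasmid and not at its own level. The study describes the protoplasts as mesophyll cells, and bundle sheath cells, the other photosynthetic cell type of the maize leaf, were not profiled apart. The groups are the 104 TFs, with 217 libraries in all: 97 TFs had 2, 5 had 3 and 2 had 4, and each of the 34 TFs that listed PPDK had 2. The table merges the replicates of each TF. Replicate error is therefore unknown for every value below, and no test between TFs was made. The table carries no read depth.

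In C4 leaves, carbonic anhydrase (CA) and phosphoenolpyruvate carboxylase (PEPC) fix CO2 in mesophyll cells into a C4 acid, NADP-malate dehydrogenase (NADP-MDH) makes malate from it, and NADP-malic enzyme (NADP-ME) releases the CO2 to Rubisco in the bundle sheath. PPDK regenerates the acceptor of PEPC, and its activity is switched on in the light by a regulatory protein. The maize C4 gene has a promoter for the chloroplast form and a separate, internal promoter for a cytosolic form, and the table does not say which start was scored. Each value in the table is the p-value of TIP (target identification from profiles), which scores the peaks near the start of a gene with weights taken from the mean binding of that TF over all genes. A low p therefore stands for strong binding near the start relative to other genes of that TF, and pairs at or above 0.05 were not listed. The header calls these values p-values, the methods give an FDR of 5%, and whether they were adjusted is not stated. Since the scale is set anew for each TF, the rank of PPDK among the targets of the TF is given beside each p.

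The lowest p-values came from the 6 TFs whose names start with COL (CONSTANS-like). CONSTANS-like proteins as a class are zinc finger proteins with a CCT domain, known in other plants for roles in photoperiod and flowering. For COL8 the p of PPDK was 7.64e-25, and PPDK ranked 6th of 2849 targets, in the top 0.211%. For COL13 the p was 1.62e-17 and the rank 13th of 2927. For COL3 the p was 6.66e-12 and the rank 30th of 3214. In these 3 lists PPDK therefore lay in the top 1% of the targets. COL18 followed with a p of 1.43e-09 and a rank of 57th of 3174. COL7 had a p of 5.71e-08 and a rank of 14th of 3013. COL2 had a p of 2.53e-05 and a rank of 401st of 3296. The COL TFs thus did not rank PPDK alike, since it lay in the top 1.80% of the targets for 5 of them and at 12.2% for COL2.

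The order of the COL TFs depended on the scale. COL7 was the 5th of them by p and the 3rd by percent rank, and its own p-values spanned a narrower range. COL7 had 63 targets with a p of 1e-05 or less and a lowest p of 1.28e-12. COL8 had 440 such targets and a lowest p of 1.40e-43. COL2 had 322 such targets, as many as COL3, so that its higher p for PPDK was also a lower place in its own list. Of the 20067 target genes 624 were listed by all 6 COL TFs, or 3.11%, and PPDK was among them. By the sum of -log10 p over the COL TFs, PPDK ranked 7th of the 7065 genes that at least 1 of them listed. The COL TFs gave 72.8 of the sum of 133 that PPDK reached over all TFs, or 54.6%. These TFs hold the 6 lowest p-values of PPDK, so a high rank and a large share by their sum were set in advance. COL8 alone gave 24.1 of the 72.8, and the scale of p differs between the COL TFs. In the table of TF families 5 of them form C2C2-COL and COL18 is placed under Orphan, so that C2C2-COL listed PPDK in 5 of 5 cases (15.2% for all target genes) and Orphan in 1 of 2 (14.4%).

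**Figure D1:**
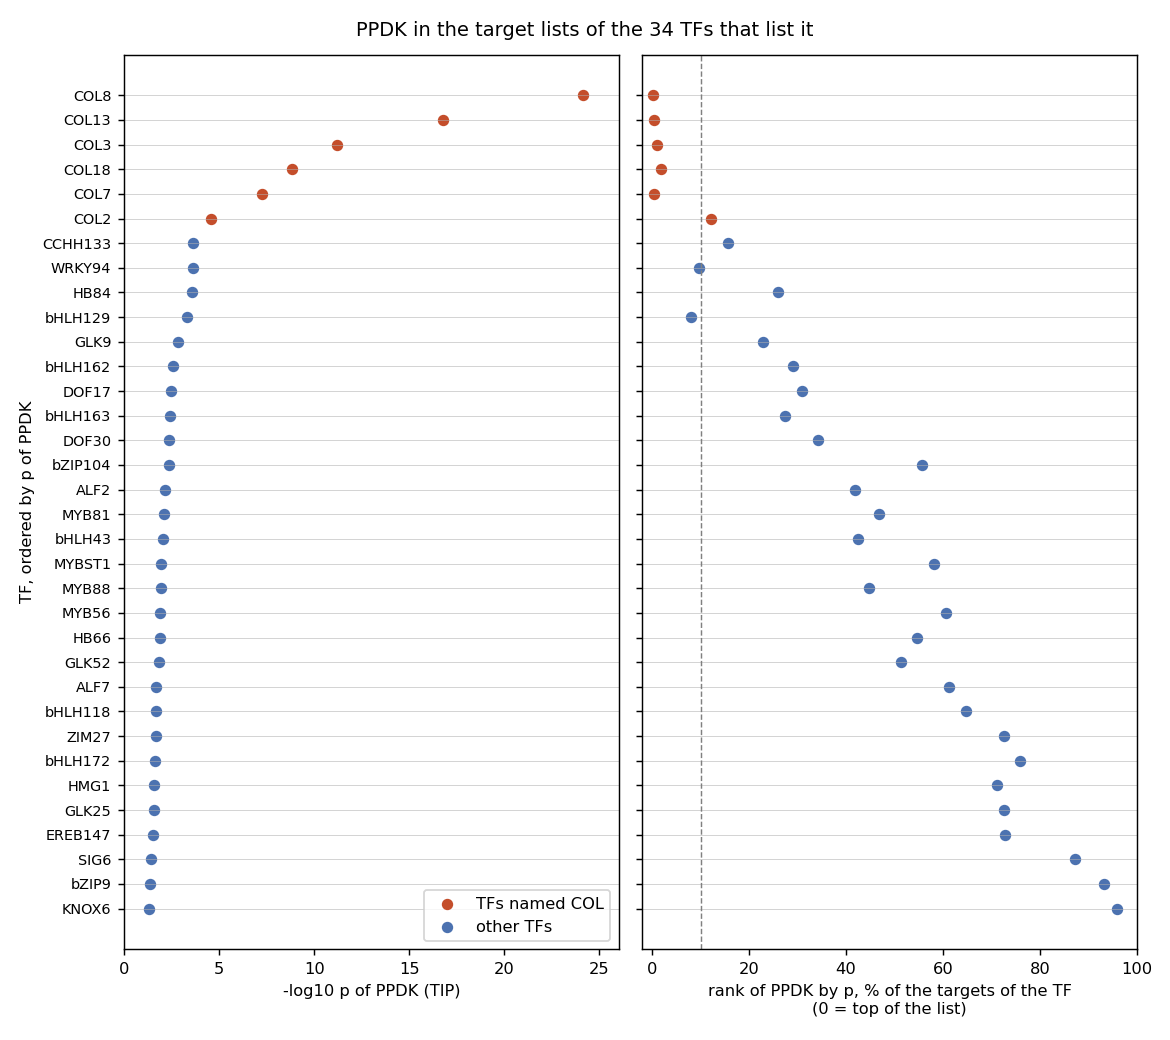
The 34 TFs that list PPDK, ordered by p, with -log10 p of PPDK on the left and its rank as a percent of the targets of each TF on the right (0 is the top of a list). The 6 TFs named COL (orange) have the 6 lowest p-values, and the dashed line marks the top 10% of targets, within which 7 TFs hold PPDK.

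Among the other 28 TFs, the p of PPDK ran from 2.29e-04 to 0.0468, and -log10 p dropped by 0.96 from COL2 to the next TF. The 4 lowest of them were at or below 0.001. CCHH133, the single C2H2 zinc finger protein profiled (10.4% of all target genes listed), had a p of 2.29e-04 and a rank of 324th of 2080. WRKY94 had a p of 2.34e-04 and a rank of 282nd of 2932. For HB84, a homeobox protein, the p was 2.78e-04 and the rank 645th of 2479, while for bHLH129 a p of 5.06e-04 gave a rank of 237th of 2935. Similar p-values thus stood for different places, with HB84 at 26.0% of its list and bHLH129 at 8.07%. PPDK lay in the top 10% of the targets for 7 of the 34 TFs (20.6%), namely 5 COL TFs, WRKY94 and bHLH129, against 9.98% of all 272627 pairs. The median percent rank was 43.6 over the 34 TFs and 52.9 over the 28 TFs that are not COL. For those 28 PPDK was thus, at the median, a target of ordinary rank. Its median p over all 34 TFs was 0.00711, beside 0.00809 over all pairs of the table.

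By TF family, 16 of 25 families held at least 1 TF that listed PPDK. The percent given beside each family is its mean over all target genes, whereas PPDK was listed by 32.7% of all TFs. The bHLH proteins, basic helix-loop-helix factors that as a class bind E-box sequences, listed it in 6 of 11 cases, against a mean of 13.4% for all target genes. After bHLH129 came bHLH162 (p of 0.00267), bHLH163 (0.00369), bHLH43 (0.00892), bHLH118 (0.0202) and bHLH172 (0.0246). In this family PPDK ranked between 8.07% and 76.0% of the targets. It was not listed by bHLH47, bHLH108, bHLH136, bHLH145 and bHLH91, of which bHLH91 had 21 targets in all.

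DOF proteins are plant zinc finger factors, and maize members have been studied as regulators of carbon metabolism genes that include PPDK. DOF17 listed it with a p of 0.00323 and DOF30 with 0.00432, at 30.9% and 34.3% of their targets. DOF21 and DOF22 did not list it, so the family stood at 2 of 4, against 13.2% for all target genes. Both Alfin-like proteins, a plant family with a PHD finger, listed PPDK, with a p of 0.00671 for ALF2 and 0.0202 for ALF7 (13.1% for all target genes).

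GLK proteins belong to the GARP class of factors, and GLK1 and GLK2 are known as activators of genes for chloroplast development. Neither GLK1 nor GLK2 listed PPDK, and they had 1193 and 2069 targets. It was listed by GLK9 (p of 0.00139), GLK52 (0.0137) and GLK25 (0.0279), and not by GLK11 and GLK53, which made 3 of 7 against 12.9%. Of the 7 homeobox TFs, HB66 (0.0134) and the knotted-like KNOX6 (0.0468) listed PPDK in addition to HB84, against 12.7%. The p of KNOX6 was the closest to 0.05 of all, and PPDK ranked 2805th of its 2927 targets. HB33, HB34, HB38 and HB70 did not list it.

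Of the 9 MYB TFs, MYB81 (0.00752), MYB88 (0.0114) and MYB56 (0.0125) listed PPDK, against 13.8%, whereas MYB4, MYB6, MYB31, MYB37, MYB38 and MYB62 did not. Of the 6 bZIP TFs, bZIP104 (0.00441) and bZIP9 (0.0442) listed it, against 12.1%, and LG2, bZIP38, bZIP40 and bZIP113 did not. PPDK was also listed by HMG1, a high mobility group protein (0.0269, against 15.3%), and by SIG6, a sigma factor of the plastid RNA polymerase (0.0362, against 15.5%), each profiled alone from its family. HMG1, SIG6 and bZIP9 placed PPDK between 71.1% and 93.2% of their lists, and the MYB TFs and bZIP104 between 44.7% and 60.7%.

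Other families with 5 or more TFs held a single TF that listed PPDK. In the EREB family, ethylene response factors, 1 of 14 TFs listed it (EREB147, p of 0.0307), or 7.14%, against 13.7%. In the MYB-related family it was 1 of 10 (MYBST1, 0.0111), against 9.87%. MYBR26 and MYBR87 were among the 9 MYB-related TFs that did not, with MYBR17, MYBR32, MYBR40, MYBR41, MYBR43, MYBR64 and MYBR96. Of the ZIM proteins, which act as repressors in jasmonate signalling, ZIM27 (0.0202) listed it and ZIM1, ZIM3, ZIM16, ZIM18 and ZIM28 did not, against 13.6%. Of the 5 WRKY TFs only WRKY94 did, against 14.6%, and WRKY25, WRKY53, WRKY82 and WRKY95 did not. No TF of the 9 remaining families listed PPDK. These families hold 13 TFs, among them 3 NAC, 2 TCP and 2 GRAS TFs and the clock proteins LHY1, ELF3 and PRR. For all target genes the shares of these families ran from 7.05% to 15.3%.

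**Figure D2:**
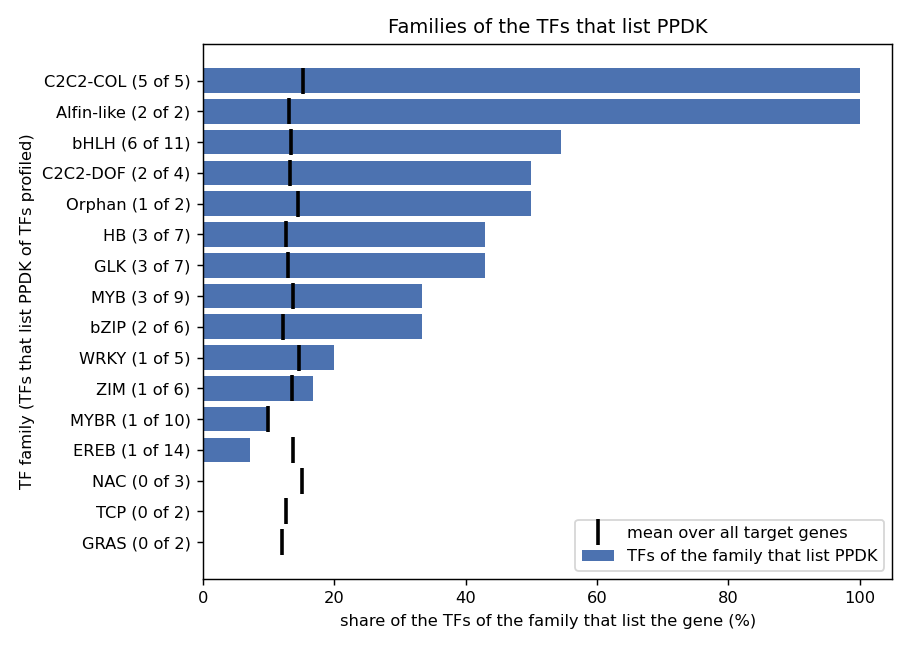
Share of the TFs of each family that list PPDK (bars), for the families with at least 2 profiled TFs, beside the mean share over all 20067 target genes (black marks). C2C2-COL and Alfin-like reach 100%, bHLH stands at 6 of 11, and EREB stands at 1 of 14, beside a mark of 13.7%. The marks do not allow for the 32.7% of all TFs that list PPDK.

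The TFs that listed PPDK had long target lists. They had between 2080 and 3296 targets with a median of 2986.5, and the 70 other TFs had between 21 and 3422 with a median of 2693. Of the 14 TFs with fewer than 2000 targets 0 listed PPDK, and of the 90 with at least 2000 targets 37.8% did. The limit of 2000 lies just under the shortest of the PPDK-listing lists (2080), so this 0 repeats the range above. The part of list length in the family counts was not tested. For a TF that did not list PPDK the table holds no p, so weak binding near the start and none cannot be told apart.

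Over all target genes, 87.2% were listed by no more TFs than PPDK. By the sum of -log10 p, 91.9% of the target genes reached no more than PPDK. For 97.1% of the genes, the lowest p from any TF was no smaller than that of PPDK. Without the 6 COL TFs PPDK kept 28 of 98 TFs (28.6%, against 12.9% for all target genes), and 85.0% of the genes were listed by no more TFs. Its sum of -log10 p was then 60.5, and 82.9% of the genes did not exceed it. The 85.0% and the 82.9% are over the 19775 genes that any other TF listed, and the 12.9% is over all 20067 target genes. With the COL TFs counted, PPDK thus stood higher by the strength of its listings than by their number. The COL TFs held the 6 lowest p-values of PPDK and were left out after the data were seen. A lower place by strength without them was therefore set in advance. With a p of at most 0.01 PPDK was listed by 19 TFs (18.3%, against 7.01% for all target genes). With a p of at most 0.001 it was listed by 10 TFs (9.62%, against 3.56% for all target genes). With a p of at most 1e-05 it was listed by COL8, COL13, COL3, COL18 and COL7 (4.81%, against 1.33%).

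Among the other C4 genes, the TFs of PPDK were compared with those of CA1 (Zm00001d044099), CA2 (Zm00001d044096), PEPC (Zm00001d046170), NADP-MDH (Zm00001d031899), NADP-ME (Zm00001d000316) and the small subunits of Rubisco RbCS1 (Zm00001d052595) and RbCS2 (Zm00001d004894). No test of these overlaps was made, and the shares can be read against the 32.7% of all TFs that listed PPDK. All 34 TFs of PPDK listed CA1, as did 92.3% of all TFs, and they were 35.4% of the 96 TFs of CA1. CA2 was listed by 23 of them, or 67.6% of the TFs of PPDK beside 48.1% of all TFs, and these were 46% of the 50 TFs of CA2. PEPC had 11 TFs, of which 9 (81.8%) listed PPDK, and these were the 6 COL TFs, ALF2, GLK52 and HB66. All 4 TFs of RbCS2 (COL18, COL2, COL3 and COL8) and 3 of the 4 TFs of RbCS1 (COL2, DOF17 and DOF30) listed PPDK. NADP-MDH shared COL2 and COL8, 2 of its 6 TFs (33.3%), which is near the share of all TFs. NADP-ME was listed by no TF. The table holds listed pairs only, so a gene without binding cannot be told apart from a gene that was not scored. The study places its merged TF-binding loci on the numbered chromosomes. Whether the NADP-ME gene lies on one of them was not tested, so its lack of TFs is not read as a lack of binding.

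The p of PPDK and of these genes can be set side by side within a TF. PPDK had the lower p in 8 of the 34 TFs that listed both it and CA1. These were the 6 COL TFs, CCHH133 and bHLH129. For COL8 the p of CA1 was 3.93e-04 and its rank 944th, and that of PEPC was 1.52e-05 at rank 475. For COL13 the p of CA1 was 1.53e-08 at rank 131. For COL18 CA1 had 1.96e-08 and PEPC 4.65e-07, both within the top 5% of its targets. In these TFs PPDK was thus ranked above both genes. PPDK had the lower p in all 9 TFs shared with PEPC and in 12 of the 23 shared with CA2. COL2 ranked CA2 (8.29e-07) and RbCS2 (1.64e-05) above PPDK (2.53e-05), and RbCS1 (3.24e-05) below it. Of the 34 TFs, 9 listed no C4 gene but PPDK and CA1, 15 listed 3 of the C4 genes and COL2 listed 7.

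**Figure D3:**
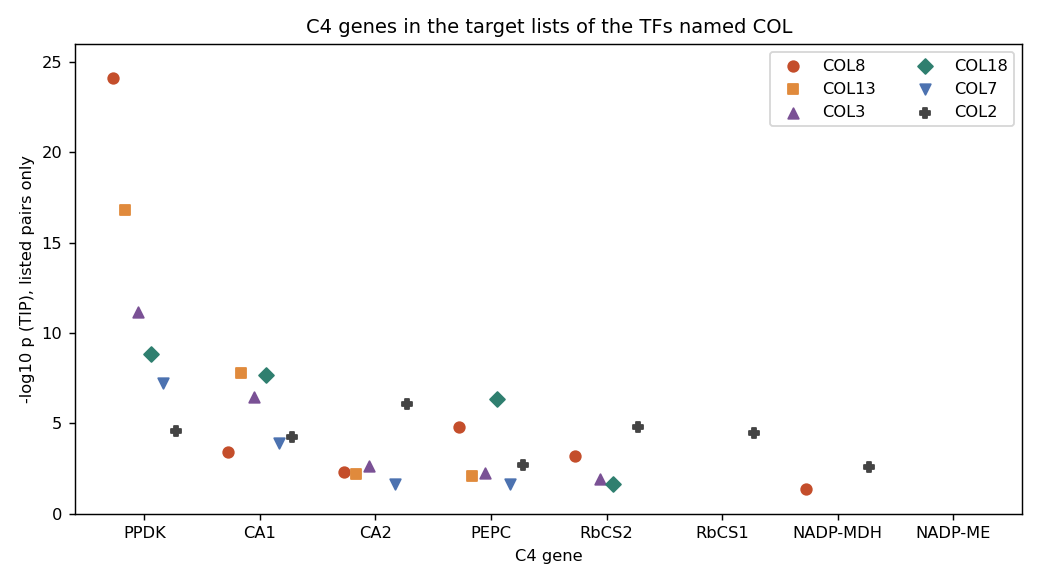
-log10 p of the 8 C4 genes in the target lists of the 6 COL TFs, with listed pairs only, so that a missing symbol means the TF did not list the gene. PPDK spans 4.60 (COL2) to 24.1 (COL8) and has all 6 symbols, as do CA1 and PEPC, while NADP-ME has none. Whether the NADP-ME gene was scored at all was not tested.

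The genes of the 34 TFs were themselves looked up as targets. Of the 1122 ordered pairs among them, 274 (24.4%) were listed, against 28.6% of the 10712 pairs among all 104 TFs. With a p of at most 0.001, where 10 TFs listed PPDK, the shares were 13.3% (12 of 90 pairs) and 13.1%. Their genes were listed very unevenly. ZIM27 was listed by 29 of the other 33 TFs, EREB147 by 27, MYB81 by 26, WRKY94 by 25 and COL18 by 24, whereas the genes of COL8, COL3, ALF2, GLK25, KNOX6, MYBST1 and bHLH162 were listed by none of them. Most of this followed the number of TFs that listed each gene in all, which was 89 of 103 for ZIM27 and 73 for COL18. GLK52 had the widest gap, with 21 of 33 TFs of PPDK (63.6%) and 41 of all 103 (39.8%). MYB81 had 78.8% and 61.2%.

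Among the 6 COL TFs, 15 of 30 ordered pairs were listed (50%), while the 98 other TFs listed a mean of 21.1% of the COL genes. The COL18 gene was listed by 4 of the 5 other COL TFs and by 70.4% of the 98, the COL7 gene by 4 of 5 and by 15.3%, and the COL2 gene by 2 of 5 and by 16.3%. The COL13 gene was listed by the other 5 COL TFs and by 22.4% of the 98. For COL13 the COL TFs had p-values from 3.03e-05 (COL8) to 0.0497 (COL18). The edges to the COL7 gene came from COL8 (5.17e-08), COL2 (0.00201), COL18 (0.00624) and COL13 (0.0482). COL8, which had the lowest p for PPDK, thus listed 3 of the other COL genes, including COL18 (0.00322), while its own gene was listed by no TF of the table. COL3 listed the COL2 gene with a p of 1.99e-04. The 15 edges among the COL TFs lay between 7.34% and 99.7% of their lists, and only that from COL8 to COL7 lay in the top 10%. Peaks in the locus of a TF itself had been removed, so pairs of a TF with its own gene were not counted.

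**Figure D4:**
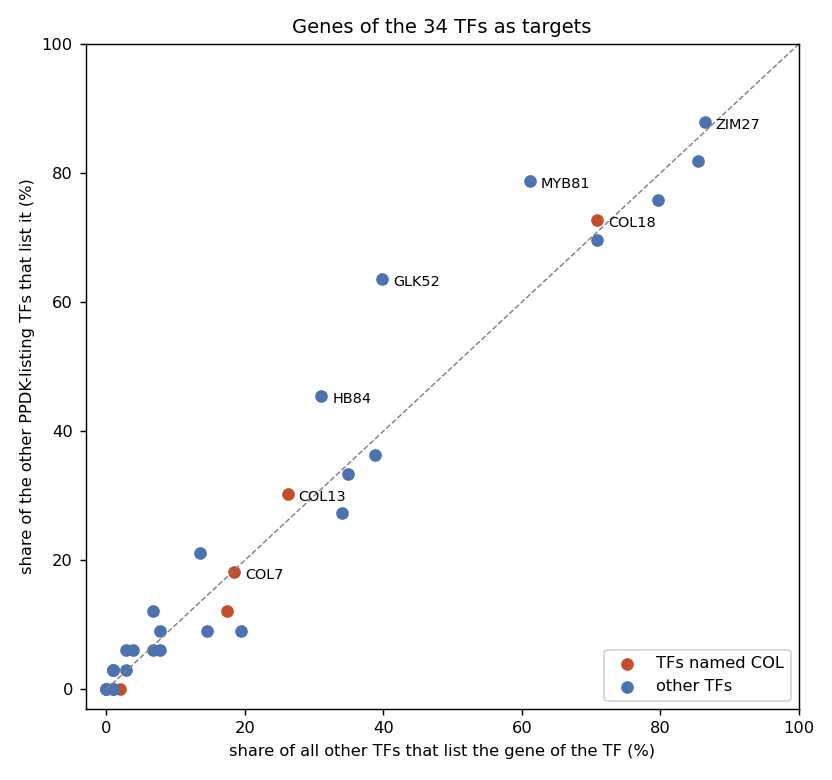
Each point is the gene of 1 of the 34 TFs that list PPDK, with the share of all 103 other TFs that list it on the x axis and the share of the other 33 PPDK-listing TFs on the y axis. On the dashed line the shares are equal. GLK52 (39.8% and 63.6%) lies above it, and ZIM27 and COL18 lie close to it.

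The genes most like PPDK depended on how likeness was measured over the 104 TFs. By the Jaccard index (shared TFs divided by the TFs of either gene) the highest was Zm00001d037025 with 0.528, listed by 47 TFs of which 28 listed PPDK. It was followed by Zm00001d043399 (0.48), Zm00001d017085 and Zm00001d043511 (0.475 each) and Zm00001d049641 (0.471), beside a median of 0.0541 over the target genes. The index is limited by the number of TFs of a gene. The median target gene was listed by 5 TFs and these 5 genes by 40 to 66, so the gap to the median does not measure likeness alone. Zm00001d049641 shared 32 of the 34 TFs of PPDK, but 66 TFs listed it. The lowest p came from a COL TF in 1 of these 5 genes. By the cosine of -log10(p + 1e-10), which weighs strong listings, the first were Zm00001d049464 (0.837), Zm00001d020711 (0.836), Zm00001d002532 (0.797), Zm00001d052011 and Zm00001d043735 (0.785 each), beside a median of 0.0932. Each of these 5 was listed by all 6 COL TFs, with its lowest p from COL8 or COL13. In this measure the COL TFs carry the 6 largest weights of PPDK, from 4.60 to 10, and any other TF at most 3.64. That genes led by COL TFs came first was therefore largely set in advance. Zm00001d020711 was listed by the 6 COL TFs alone, with a lowest p of 0.00128. The lists from these measures had no gene in common. These values are descriptions, since all genes are scored from the same libraries and related TFs repeat each other.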

How the data were processed

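Per the labels and the study's methods, the authors mapped reads to B73 RefGen_v4 with Bowtie 2 (2.2.5), filtered them with SAMtools (1.3) and used SPP, with input as control, to find peaks. Peaks that passed an IDR of 1% over replicates and lay outside the gene of the profiled TF were scored by TIP at an FDR of 5%, in a version not stated here. The deposited values are p-values, 1 for each listed TF and gene, with replicates pooled. Depth is not in the table, so no interval is given.

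TF names, families and the C4 genes came from the study's name tables (ELF3 and PRR are named by their family). Ranks were taken by p within each TF (lowest rank among ties). For sums, a p of 0 was set to the smallest p above 0, and -log10(p + 1e-10) was the alternative. The other alternatives were p of at most 0.01, 0.001 and 1e-05, TFs with fewer than 500 targets left out, tie handling, and COL18 and LHY1 moved to other families. The rule for named genes covered PPDK, its TFs, TFs of their families, the C4 genes and the 5 genes most like PPDK by each measure. The COL TFs were left out after the data were seen. The members and lists were chosen with earlier results of these data known. The Jaccard index, the rank within a TF and the number of TFs of a gene were tested on simulated data, and the other steps were not. Python 3.11.15, pandas 2.3.3 and numpy 2.4.6 were used. The identifier of PPDK was not matched in the NAM-5.0 gene table, where 2 genes carry the synonym PPDK, so no position or sequence is given and promoter motifs were not analysed here.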

Additional observations from a re-analysis of the deposited data

How the results depend on the processing

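The number of TFs that listed PPDK was set by the p threshold. It was 34 in the whole table, 19 with a p of at most 0.01, 10 with 0.001 and 5 with 1e-05. The families fell from 16 to 6 with 0.001 and to 2 with 1e-05. These 2 were C2C2-COL and Orphan, the latter through COL18, so that all 5 TFs there were COL TFs. With COL18 and LHY1 moved to other families, 15 families in the whole table held a TF that listed PPDK. The share of target genes at or below PPDK was 87.2% by number of TFs, 91.9% by the sum of -log10 p, 90.4% by the sum of -log10(p + 1e-10), and, without the COL TFs, 85.0% by number and 82.9% by sum. Of the 5 genes most like PPDK by the Jaccard index, 0 were among the first 5 by cosine and 0 among the first 5 with a p of at most 0.001. The share of listed pairs among the TFs of PPDK was 24.4% and, with a p of at most 0.001, 13.3% (12 of 90 pairs), beside 13.1% of the pairs among all TFs at that threshold. Tie handling left the median rank and the 7 TFs with PPDK in the top 10% as they were. Leaving out TFs with fewer than 500 targets changed neither of these nor the 34 TFs. By the order of the PPDK edges, 5 of the first 6 TFs were COL by percent rank, against 6 by p. No paired analysis was possible because the table merges the replicates of each TF, and for the same reason no replicate was left out in turn.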
